A study of Mus musculus with 5 samples.

Results

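The 10 genes Otx2, En1, En2, Barhl1, Pax6, Meis1, Pax2, Lhx1, Lhx5 and Nkx2-2 encode homeobox and paired-box transcription factors of the hindbrain and cerebellum. They were chosen by symbol from the 21938 protein-coding genes of the annotation on the main chromosomes, and every peak within each gene body plus 10 kb on either side was read. From each of the MG tumors 39 and 41, DNA bound by Gfi1 and DNA bound by Lsd1 was sequenced, so that 4 ChIP-seq libraries were compared, 2 for each protein and 2 from each tumor. MG tumors were grown from cerebellar neural stem cells, sorted as Prominin1+ and Lin- from C57BL/6 pups 5 to 7 days old, which were infected with retroviruses for a stabilized Myc and for Gfi1 and transplanted into NSG mice. Both proteins were thus studied in cells in which Gfi1 was supplied by a virus, and no tumor without Gfi1 was among the ChIP libraries. The chromatin came from frozen tumor tissue, in which host cells cannot be told apart from tumor cells. An input library from pooled MGB tumors, made with Myc and Gfi1b, was listed as the control and was not analysed here.

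Homeobox genes encode transcription factors that bind DNA through a homeodomain, and their staggered expression divides the embryonic neural tube into territories and neuron classes. In the cerebellum, Otx2 and the Engrailed genes pattern the midbrain and hindbrain border, Barhl1, Pax6 and Meis1 mark granule neurons and their rhombic lip precursors, and Pax2, Lhx1 and Lhx5 mark GABAergic lineages. Gfi1 is a zinc finger repressor, and its SNAG domain binds Lsd1, a histone demethylase that acts in repressor complexes.

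All 10 genes had a Gfi1 peak within 1000 bp of an annotated transcription start site (TSS) in tumor 39, against 65% of all protein-coding genes, but 3 of 10 (Barhl1, Pax6 and Lhx1) had one in tumor 41, against 54.3%. An Lsd1 TSS peak was found at the same 3 genes in tumor 39, against 58.5% of all genes, and at 6 of 10 genes in tumor 41, where En1, En2 and Pax2 were added, against 61.7%. Otx2, Meis1, Lhx5 and Nkx2-2, 4 of 10, had a TSS peak in the Gfi1 library of tumor 39 alone, as 3.56% of all genes did. The genes therefore fell into 3 patterns. Start windows that differed in coverage are printed here with CpG dinucleotides in capitals, since the CpG content of the peaks is described further on. A window need not follow the pattern of its gene. The RefSeq windows (GRCm38.p6, the build of mm10) run from 250 bases before to 50 bases after a start, 5′ to 3′ on the strand of the gene, and the 2 windows at inner starts were read from the genome around GENCODE starts.

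Starts that lay in peaks of all 4 libraries were found at Pax6, Lhx1 and Barhl1, and the windows of the first pair are printed, one inside Pax6 (chr2:105674859-105675158, plus strand, 12 CpG) and one inside Lhx1 (chr11:84522662-84522961, minus strand, 22 CpG). The Pax6 window was covered over its full length by Gfi1 peaks in both tumors and by Lsd1 in tumor 41, and over 60.7% by Lsd1 in tumor 39. The Lhx1 window was covered over its full length in all 4 libraries. At Barhl1, 2 starts lay in peaks of all 4 libraries, and the window of the outer one (chr2:28916391-28916690, minus strand) was covered over 57.3% by Gfi1 in tumor 41 and in full by the others.
Pax6 inner start: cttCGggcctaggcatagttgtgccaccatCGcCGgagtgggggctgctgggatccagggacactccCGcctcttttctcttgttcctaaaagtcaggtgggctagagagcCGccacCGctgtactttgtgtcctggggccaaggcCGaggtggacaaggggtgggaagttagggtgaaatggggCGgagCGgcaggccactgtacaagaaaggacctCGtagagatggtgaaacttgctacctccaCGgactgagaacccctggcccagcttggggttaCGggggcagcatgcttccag
Lhx1 inner start: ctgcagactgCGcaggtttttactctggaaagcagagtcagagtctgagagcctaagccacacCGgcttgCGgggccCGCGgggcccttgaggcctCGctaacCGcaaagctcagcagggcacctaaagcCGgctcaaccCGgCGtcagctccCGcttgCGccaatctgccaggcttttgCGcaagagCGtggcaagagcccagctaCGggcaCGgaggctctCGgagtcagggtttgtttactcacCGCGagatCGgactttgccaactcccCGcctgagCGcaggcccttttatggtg

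The next windows show starts at which the libraries disagreed. The outermost Barhl1 window (chr2:28916619-28916918, minus strand, 9 CpG) was covered in full by Lsd1 in both tumors and over 42.7% by Gfi1 in tumor 39, and not by Gfi1 in tumor 41. The Lhx1 5′ window (chr11:84525485-84525784, minus strand, 31 CpG) was covered in full by Gfi1 in tumor 39 and over 68% by Lsd1 in tumor 41, and in no other library.
Barhl1 5′ start: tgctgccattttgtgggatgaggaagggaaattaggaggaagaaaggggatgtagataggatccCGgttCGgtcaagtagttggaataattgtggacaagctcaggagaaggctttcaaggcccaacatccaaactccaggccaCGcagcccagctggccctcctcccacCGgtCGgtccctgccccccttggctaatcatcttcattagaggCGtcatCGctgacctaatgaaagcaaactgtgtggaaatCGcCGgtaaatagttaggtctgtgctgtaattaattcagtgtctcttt
Lhx1 5′ start: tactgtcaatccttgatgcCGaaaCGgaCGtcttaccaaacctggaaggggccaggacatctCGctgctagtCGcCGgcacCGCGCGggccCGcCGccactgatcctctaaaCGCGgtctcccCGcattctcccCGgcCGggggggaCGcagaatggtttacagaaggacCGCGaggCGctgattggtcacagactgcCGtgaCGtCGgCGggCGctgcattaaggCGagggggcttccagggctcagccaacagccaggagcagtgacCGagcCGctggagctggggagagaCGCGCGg

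Among the windows covered by the Gfi1 library of tumor 39 alone were those at the Pax6 5′ end (chr2:105668646-105668945, plus strand, 18 CpG) and at the start of a Pax2 transcript in RefSeq (chr19:44755502-44755801, plus strand, 23 CpG), both covered in full. An Lsd1 peak of tumor 41 came within 1000 bp of this Pax2 start without entering the window. The Meis1 5′ window (chr11:19018920-19019219, minus strand, 15 CpG) lay in no peak of any library. The median over the 32851 promoters of the RefSeq table was 7 CpG.
Pax6 5′ start: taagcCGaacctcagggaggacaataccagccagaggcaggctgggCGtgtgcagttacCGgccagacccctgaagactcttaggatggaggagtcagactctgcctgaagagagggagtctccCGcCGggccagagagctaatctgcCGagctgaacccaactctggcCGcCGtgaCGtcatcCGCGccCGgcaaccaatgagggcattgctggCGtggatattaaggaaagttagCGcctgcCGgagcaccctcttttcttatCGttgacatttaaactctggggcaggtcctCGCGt
Pax2 upstream start: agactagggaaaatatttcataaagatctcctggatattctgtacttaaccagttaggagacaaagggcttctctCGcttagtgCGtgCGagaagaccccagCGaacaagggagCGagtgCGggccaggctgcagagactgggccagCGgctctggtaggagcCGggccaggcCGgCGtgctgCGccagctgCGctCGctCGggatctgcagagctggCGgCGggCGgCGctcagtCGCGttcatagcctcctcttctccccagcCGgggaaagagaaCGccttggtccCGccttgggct
Meis1 5′ start: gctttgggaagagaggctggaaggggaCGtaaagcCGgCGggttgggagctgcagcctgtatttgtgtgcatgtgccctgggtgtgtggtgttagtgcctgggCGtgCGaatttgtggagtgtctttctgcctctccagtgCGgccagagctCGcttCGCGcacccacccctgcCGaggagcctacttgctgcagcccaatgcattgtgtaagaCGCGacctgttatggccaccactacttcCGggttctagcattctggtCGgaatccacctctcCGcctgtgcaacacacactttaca

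The RefSeq table held 15 windows for 8 of the 10 genes. The core of the Gfi1 site, AATCAC on either strand, occurred in 2 of these 15 windows (at Barhl1 and En1), against 10.4% of all 32851 windows. The homeodomain core TAATTA, which reads the same on both strands, occurred in 3 of 15 (1 at Barhl1 and 2 at Otx2), against 5.29%. These are letter matches only, and neither motif contains the other. AATCAC was in neither of the inner start windows of Pax6 and Lhx1, which were covered by peaks of both proteins.

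The 4 lists held 25078 to 36836 peaks with median widths of 1443 to 1765 bp. The Gfi1 list of tumor 39 was the longest and that of tumor 41 the shortest, although the reporting of the study gives fewer mapped reads for the former. It also gives fewer mapped reads for Lsd1 in tumor 41 than in tumor 39. For each protein, the library with fewer mapped reads thus had the longer list. Read counts are not part of the lists, and the precision of a single peak is therefore unknown. The score of each peak, of undefined kind, was used only as a percentile within its own list. TSS peaks were also counted at marker genes, in the order Gfi1 tumor 39, Gfi1 tumor 41, Lsd1 tumor 39, Lsd1 tumor 41. A peak was found for 5, 2, 4 and 5 of 5 neural progenitor genes and 2, 1, 2 and 2 of 5 immune genes. The counts were 2, 0, 0 and 2 of 5 endothelial genes and 1, 0, 1 and 1 of 2 photoreceptor genes. Over all protein-coding genes, the shares with a TSS peak were 65%, 54.3%, 58.5% and 61.7%. Ptprc, Csf1r, Itgam, Pecam1, Cdh5, Tek and Crx had no TSS peak in any library. Of the same lists, Cd68 had one in all 4 libraries, and Spi1 and Nrl in all but Gfi1 of tumor 41. Kdr and Cldn5 had one in Gfi1 of tumor 39 and Lsd1 of tumor 41. Peaks do not measure expression, and the part of other cells in the results was not tested.

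Barhl1, Pax6 and Lhx1 had a TSS peak in all 4 libraries, 3 of 10 genes against 53.1% of all. The same 3 were those with a TSS peak in both Gfi1 libraries, against 53.9% of all genes, and in both Lsd1 libraries, against 57.7%. None of the 10 lacked a TSS peak altogether, as 33.6% of all genes did. Without the Gfi1 library of tumor 39, 6 of 10 genes had a TSS peak in at least 1 of the 3 remaining libraries, against 62.8% of all genes. The Gfi1 library of tumor 39 thus stood apart at these genes, and each result is given below with the other libraries beside it. Its list was also the longest, and the part of this in the result was not tested. Taken at the 5′ end of the gene alone, a peak was found at 10 of 10 genes in that library (61.5% of all genes), at 1 (Barhl1) for Gfi1 in tumor 41 (50.8%), and for Lsd1 at 1 (Barhl1) in tumor 39 (55.3%) and 5 in tumor 41 (58.3%). Over the gene body plus 10 kb, Gfi1 peaks were found at 10 genes in tumor 39 (72.2% of all genes) and 4 in tumor 41 (63.4%), and Lsd1 peaks at 6 (66.7%) and 8 (69.1%). All 4 libraries had a peak in the windows of 4 genes, the former 3 and Nkx2-2, against 61.7% of all.

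Among all genes with a Gfi1 TSS peak in tumor 39, 83% also had one in tumor 41. Of the 10 genes this held for 3, or 30%, and of 36 other homeobox and Pax genes of the same brain regions for 12 of 33, or 36.4%. In both groups of developmental genes, then, fewer of the tumor 39 calls recurred in tumor 41 than over the whole annotation. A Gfi1 TSS peak in tumor 39 and none in tumor 41 was seen at 7 of 10 genes, against 11.1% of all. For Lsd1 the direction was the other way, with a TSS peak in tumor 41 and none in tumor 39 at 3 of 10 genes (En1, En2 and Pax2), against 4.06% of all. The reverse cases were at 0 of 10 genes, an Lsd1 TSS peak in tumor 39 and none in tumor 41 (0.857% of all) and a Gfi1 TSS peak in tumor 41 and none in tumor 39 (0.315%).

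**Figure D1:**
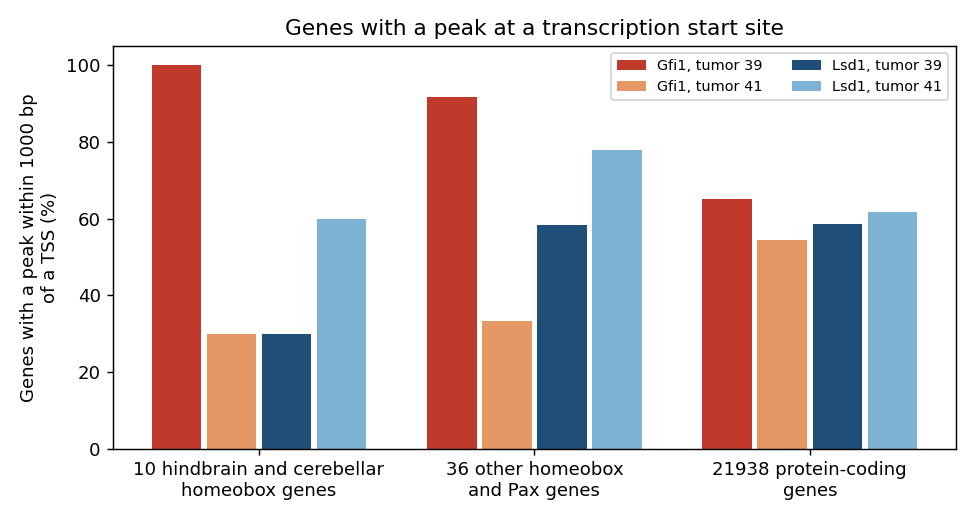
Share of genes (%) with a peak within 1000 bp of a TSS for the 10 genes, the 36 other homeobox and Pax genes and all 21938 protein-coding genes, with 1 bar for each library. The 10 genes ranged from 3 of 10 to 10 of 10 over the libraries, and all genes from 54.3% to 65%.

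The patterning genes were covered mainly in 1 library. Otx2 (chr14:48657677-48673819, minus strand), which specifies the forebrain and midbrain and is also a medulloblastoma gene, had 4 Gfi1 peaks in tumor 39 and no peak in the other 3 libraries. These 4 peaks were narrow, from 876 to 1111 bp, and low in their list, at percentiles of 5.97 to 37.0. The highest of them, chr14:48673332-48674417, lay over the 5′ end of the gene, and it also holds starts of Otx2os1 and Gm49154, so that it cannot be assigned to 1 of the 3. Together they covered 10.97% of the Otx2 gene body plus 10 kb.

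En1 (chr1:120602418-120607992, plus strand), needed for the midbrain and cerebellum to form, had a Gfi1 peak of 2773 bp over its only TSS in tumor 39, chr1:120601250-120604022, at the percentile 63.4. In tumor 41 it had no Gfi1 peak but an Lsd1 peak of 1005 bp in the first part of the gene, 708 bp from the TSS and at the percentile 35.2. The Lsd1 library of tumor 39 had none. Gfi1 peaks of tumor 39 covered 14.5% of En1 and its 10 kb on either side, Lsd1 peaks of tumor 41 covered 3.93%, and the other libraries covered 0.

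En2 (chr5:28165694-28172166, plus strand), the paralog of En1 that shapes cerebellar foliation, repeated this order, with shares of 12.3% in the first, 5.30% in the second and 0 in the remaining libraries. Its highest Gfi1 peak (chr5:28165935-28167505, percentile 66.1) and its only Lsd1 peak (chr5:28165912-28167314, percentile 27.6) lay over the same stretch just inside the gene, 241 and 218 bp from the TSS. Another Gfi1 peak of tumor 39 lay at the start of Gm43610, a transcript on the other strand within the gene. En1 and En2 thus shared a pattern, a Gfi1 call in tumor 39 and an Lsd1 call in tumor 41, in which the proteins were never called at the same place in the same tumor.

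Of the granule lineage genes, Barhl1 and Pax6 had peaks in every library. Barhl1 (chr2:28907679-28916668, minus strand) encodes a factor of migrating granule neuron precursors. In tumor 39 Gfi1 peaks covered 29.7% and Lsd1 peaks 17.6% of its window, and in tumor 41 the shares were 2.87% and 24.5%, so that Lsd1 was extensive in both tumors and Gfi1 in 1. The joined site at its promoter, chr2:28914692-28919409, held peaks of all 4 libraries, with Gfi1 percentiles of up to 73.0 and 33.3 and Lsd1 percentiles of up to 80.1 and 78.9 (tumor 39 first). The Gfi1 peak of tumor 41 there was 831 bp wide, against 3969 bp for Lsd1 in the same tumor, and Lsd1 in tumor 39 had 3 peaks of 820 to 1416 bp. A site at the 3′ end of the gene, chr2:28907832-28910160, was called in 3 libraries, at the percentile 61.0 in the Gfi1 list of tumor 39 and at 32.3 and 42.2 in the Lsd1 lists, and it was absent from the Gfi1 list of tumor 41. With its 2 Lsd1 calls, this 3′ site did not depend on the Gfi1 library of tumor 39.

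Pax6 (chr2:105668900-105697364, plus strand), a paired-box and homeobox gene of granule neurons and the eye, has 24 annotated TSSs. Gfi1 peaks came within 1000 bp of 19 of them in tumor 39 and of 8 in tumor 41, and Lsd1 peaks of 7 and 8. The peaks common to all libraries sat at the inner starts printed above, in the joined site chr2:105673323-105676994, and not at the 5′ end. There the Gfi1 peak of tumor 39 was 3672 bp wide at the percentile 80.6, and that of tumor 41 was 1024 bp wide at 19.1. The Lsd1 peaks were 815 bp wide at 8.66 in tumor 39 and 2470 bp wide at 56.0 in tumor 41. The 5 further Gfi1 peaks of tumor 39, 1 of them at the start of the antisense Pax6os1, were found in no other library. Gfi1 covered 19.3% and 2.11% of Pax6 and Lsd1 covered 1.68% and 5.10%.

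Meis1 (chr11:18879817-19018985, minus strand), a cofactor of Hox proteins that is expressed in granule neurons, was the least covered of the 10. Its single peak was a Gfi1 peak of tumor 39, 774 bp wide and 521 bp upstream of the closest TSS (chr11:19019506-19020279), at the percentile 2.61. It covered 0.486% of the gene body plus 10 kb, which at 159169 bp is the longest of the 10 windows. Meis1 was among the 10 genes with a TSS peak in tumor 39 only through this peak, which lay close to the lowest score that the list keeps.

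Among the GABAergic genes, Lhx1 had TSS peaks in all 4 libraries, Pax2 in 2 and Lhx5 in 1. Pax2 (chr19:44756045-44837871, plus strand), a marker of cerebellar inhibitory interneuron precursors, had Gfi1 peaks at all 3 TSSs in tumor 39, at percentiles of 59.8 and 58.7. Lsd1 in tumor 41 had 1 peak at its TSSs, chr19:44756371-44757652, at the percentile 14.9, and no other library had any there. A site near the 3′ end, chr19:44834772-44837041, was called in 3 libraries, at the percentile 52.5 in the Gfi1 list of tumor 39 and at 17.5 and 62.8 in the Lsd1 lists. It spans the start of the antisense transcript 1700039E22Rik and lies 74857 bp from the closest Pax2 TSS, so that it is a Pax2 peak only by the window.

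Lhx1 (chr11:84518284-84525535, minus strand), a LIM homeobox gene of Purkinje cells and other inhibitory neurons, had the highest covered share of the 10 in every library. Gfi1 covered 32.2% and 12.2% and Lsd1 covered 21.4% and 30.1% in tumors 39 and 41. Its TSS peaks were 5375 and 1587 bp wide for Gfi1, at percentiles of 88.9 and 58.5. For Lsd1 they were 3762 and 3707 bp wide, at 68.9 and 75.5. The Gfi1 TSS peak of tumor 41 and the Lsd1 TSS peak of tumor 39 came within 1000 bp of the 3 inner starts. They did not come that close to the 5′ start at 84525535, near which the divergent transcript Lhx1os also begins. Of the inner starts, the Gfi1 peak of tumor 41 covered that at 84522711 alone. Part of the Lhx1 coverage belongs to another gene, since a second site in all 4 libraries, chr11:84512462-84514661, lies at the start of Aatf, which encodes an apoptosis antagonist, at percentiles of 74.2 to 89.8. That Aatf site was the higher of the pair in all 4 lists.

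Lhx5 (chr5:120431699-120441223, plus strand), the paralog that acts with Lhx1 in Purkinje cells, had 3 Gfi1 peaks in tumor 39 and none in tumor 41. They covered 25.8% of the gene body plus 10 kb, a share exceeded in that library only by Lhx1 and Barhl1 among the 10, and the highest in rank (percentile 69.2, 3814 bp) lay over the 3′ part and not at the TSS, whose peak was at 31.9 and is shared with the start of the antisense Gm27199. Both Lsd1 libraries had a peak upstream, within chr5:120423643-120425293 and at least 6406 bp from the TSS, at percentiles of 39.7 and 45.9. This was the 1 site of the 34 at the 10 genes that was called for Lsd1 in both tumors and for Gfi1 in neither. Lsd1 in tumor 41 had 2 more peaks, at 3.91 and 23.5, inside the wide Gfi1 peaks of tumor 39.

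Nkx2-2 (chr2:147177546-147194243, minus strand), which specifies ventral progenitors of the neural tube, was the only 1 of the 10 genes at which all 4 libraries met away from a TSS. The joined site chr2:147177465-147179475 reached the 3′ end of the gene and lay 6626 bp from its closest TSS and 4608 bp from that of the antisense Nkx2-2os. The Gfi1 percentiles were 60.6 and 70.6 and the Lsd1 percentiles 64.9 and 61.5 (tumor 39 first), a narrower range than at the other 3 genes with a site in all libraries. The widths were close as well, from 1656 to 1901 bp. Gfi1 in tumor 39 added 3 peaks at starts of Nkx2-2 and of the antisense transcripts, which no other library had. With them, its covered share was 16.8%, against 4.51% to 4.88% in the other 3 libraries.

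**Figure D2:**
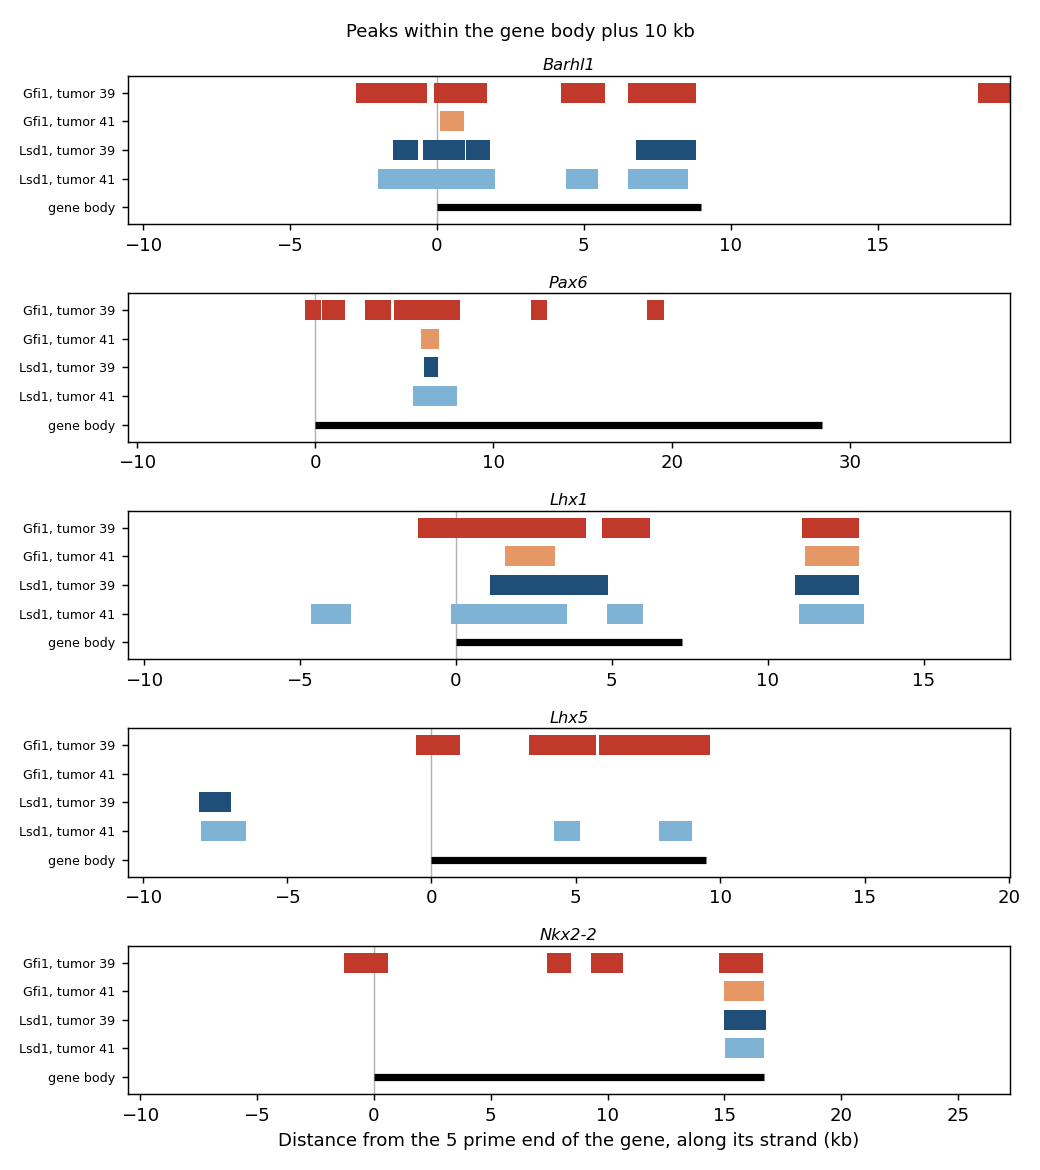
Peaks of the 4 libraries at Barhl1, Pax6, Lhx1, Lhx5 and Nkx2-2, drawn to scale by distance from the 5′ end along the strand of the gene (kb), with the gene body as a black line. The red Gfi1 peaks of tumor 39 are the most extensive at each gene. All 4 rows meet near the 5′ end of Barhl1, at inner starts of Pax6 and Lhx1 and at the 3′ end of Nkx2-2. The 4-library site of Lhx1 beyond its 3′ end is at the Aatf start.

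Over the 10 genes the median covered share was 15.6% for the Gfi1 library of tumor 39 and 0 for that of tumor 41, whereas the Lsd1 libraries had 1.23% and 4.80%. Over all genes the medians in this order were 4.24%, 3.23%, 4.23% and 4.23%, so that the libraries lay closer together there than at the 10 genes. The Gfi1 library of tumor 39 had the highest share of the 4 at 10 of 10 genes, against 22.2% of all genes, and at 25 of the 36 other homeobox and Pax genes. Gfi1 covered more in tumor 39 than in tumor 41 at 10 of 10 genes, against 50.4% of all. More Gfi1 than Lsd1 coverage was found in tumor 39 at 10 of 10 genes (33.2% of all), and less in tumor 41 at 7 of 10 (54.3%). Lsd1 covered more in tumor 41 than in tumor 39 at 7 of 10 genes, against 35.4% of all genes. At 7 of 10 genes Gfi1 covered more than Lsd1 in tumor 39 and less in tumor 41, against 24.5% of all genes. The mean share of Lhx1 was 22.2% ± 14.2 (SD, n = 2) for Gfi1 and 25.8% ± 6.20 (SD, n = 2) for Lsd1. Gfi1 covered more than Lsd1 in both tumors at 1 gene, Nkx2-2, by 11.96 and 0.13 percentage points. With 2 tumors and opposite directions at 7 genes, the proteins were not ranked.

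**Figure D3:**
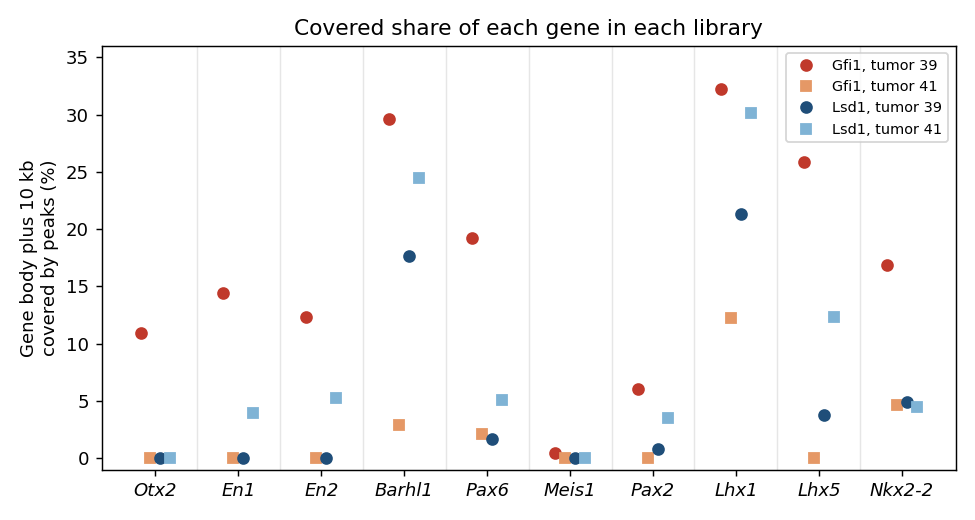
Share of each gene body plus 10 kb (%) covered by peaks, with 1 point for each library and no error bars. Gfi1 in tumor 39 (red circles) is the highest point at all 10 genes, from 0.486% at Meis1 to 32.2% at Lhx1, and the Gfi1 points of tumor 41 are at 0 for 6 genes.

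The peaks at the 10 genes were also of low or middle rank. The median percentile of the highest TSS peak of each gene was 61.6 for Gfi1 in tumor 39 (10 genes) and 33.3 in tumor 41 (3 genes), and with Lsd1 it was 68.9 and 45.6 (3 and 6 genes). Over all genes with a TSS peak these medians were 82.5, 77.4, 79.0 and 81.0. A percentile over 80, the cutoff for the upper 20% of a list, was reached in tumor 39 by the Gfi1 peaks of Lhx1 and Pax6 and the Lsd1 peak of Barhl1, and in tumor 41 by no gene. Of all genes with a TSS peak, 55.7% and 45.3% passed it for Gfi1 in tumors 39 and 41, and 48.0% and 52.1% did with Lsd1. Accordingly, 0 of 10 genes had a high-confidence Gfi1 TSS peak and 0 of 10 a high-confidence Lsd1 TSS peak. These require the upper 20% in both tumors and an overlap over at least 50% of the tumor 39 peak. The background was 22.9% and 25.9% of all genes. These sets were rebuilt with the score of the lists in place of enrichment and hold 4387 Gfi1 and 5181 Lsd1 peaks, so that the counts of 0 do not stand for the sets of the study itself. Barhl1 missed the Lsd1 set narrowly, at 80.1 in tumor 39 and 78.9 in tumor 41. With no score cutoff, 3 of 10 genes had an Lsd1 peak that overlapped by 50% of the tumor 39 peak, and 0 of 10 a Gfi1 peak. The narrower Gfi1 peaks of tumor 41 at Barhl1, Pax6 and Lhx1 covered less than 50% of those of tumor 39. They lay wholly inside these, so that the counts depend on which tumor had the wider peaks. The highest Lsd1 TSS peaks were narrower in tumor 39 at Barhl1 (1416 against 3969 bp) and Pax6 (815 against 2470 bp). At Lhx1 they were 3762 and 3707 bp wide. The contrast of 3 and 0 therefore does not rank the replication of the proteins.

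**Figure D4:**
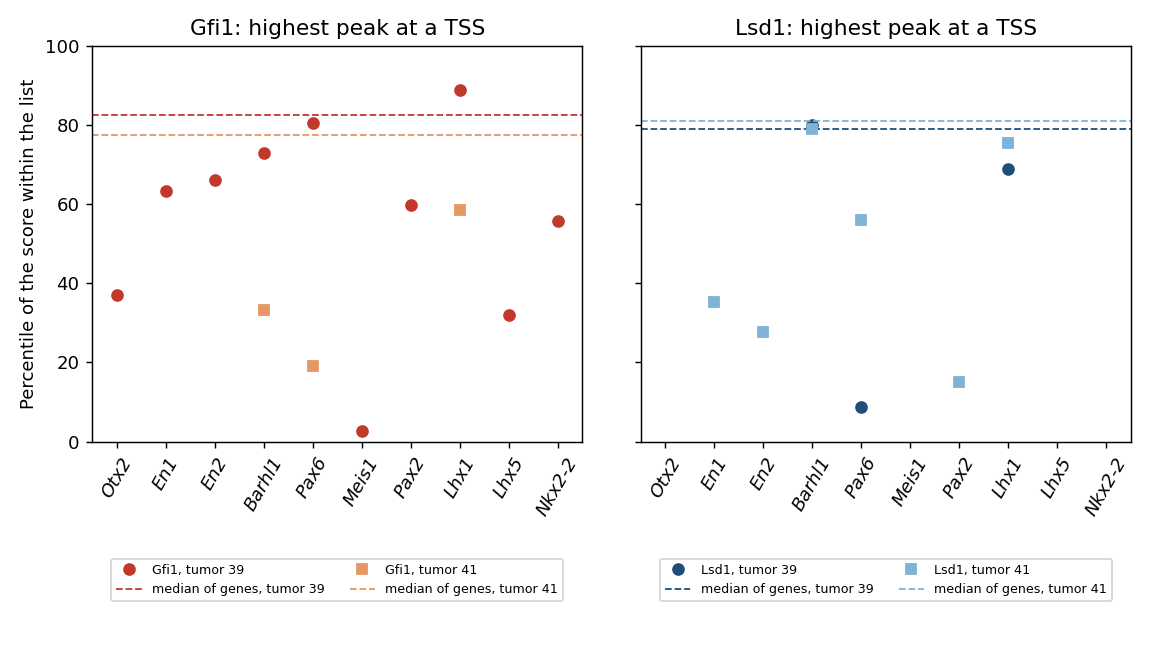
Percentile of the score, within its own list, of the highest peak within 1000 bp of a TSS of each gene, for Gfi1 (left) and Lsd1 (right), with circles for tumor 39 and squares for tumor 41. Genes without a TSS peak have no point, and dashed lines give the median over all genes with a TSS peak, from 77.4 to 82.5. Most points lie under these lines, and Lhx1 in the Gfi1 library of tumor 39 is the highest at 88.9.

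Within the 10 windows the lists of Gfi1 in tumors 39 and 41 held 34 and 5 peaks, and those of Lsd1 held 10 and 16. All 5 Gfi1 peaks of tumor 41 overlapped one of tumor 39, but 5 of 34 (14.7%) of the reverse, against 84.6% and 56.2% over the whole lists. All 10 Lsd1 peaks of tumor 39 overlapped one of tumor 41 and 9 of 16 (56.2%) of the reverse, against 81.1% and 77.2%. The smaller set was thus contained in the larger one for each protein, and the larger one came from tumor 39 for Gfi1 and from tumor 41 for Lsd1. An Lsd1 peak of the same tumor was found at 10 of 34 (29.4%) Gfi1 peaks in tumor 39 and at 5 of 5 in tumor 41, against 69.0% and 88.9% over the whole lists. The mean over the tumors, 64.7% ± 49.9 (SD, n = 2), has an SD close to the value itself.

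Joined across libraries, the peaks formed 34 sites, of which 19 held a peak of the Gfi1 library of tumor 39 alone and 1 held a peak of another single library, that of Lsd1 in tumor 41. Of the 19, 1 at the edge of the Barhl1 window (chr2:28897172-28898254) overlapped an Lsd1 peak of tumor 39 that itself lay outside the window. There were 7 sites in 2 libraries, 2 in 3 and 5 in all 4. Without the Gfi1 library of tumor 39, 15 sites remained. Of the 5 sites in all libraries, 3 were at starts of Barhl1, Pax6 and Lhx1, 1 was at the Aatf start and 1 at the 3′ end of Nkx2-2.

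Most peaks at the 10 genes were richer in CpG than their lists. The median over the peaks at the 10 genes was 50.6 and 52.8 CpG per kb in the Gfi1 lists and 46.7 and 56.2 in the Lsd1 lists, against 26.4, 24.9, 20.7 and 22.2 over the lists. The 29 Gfi1 peaks of tumor 39 without a counterpart in tumor 41 had a median of 49.8 CpG per kb, against 23.5 for all such peaks of the list, and a median percentile of 43.0 against 27.6. The 5 with a counterpart had a median of 50.8 CpG per kb, against 29.5 for all such peaks of the list. The 5′ ends held 42 (Barhl1) to 113 (En2) CpG within 500 bp, where the median gene has 41. Barhl1, Meis1, Pax6 and En1 were close to that median, at percentiles of 51.3 to 57.9 among coding genes, and the other 6 were at 67.5 to 96.6. Base composition therefore differed between these peaks and their lists, and its part in the counts was not tested. The comparison was not matched for position. In the order above, 25 of 34, 4 of 5, 7 of 10 and 9 of 16 peaks lay within 1000 bp of any TSS. Over the lists these shares were 50.6%, 56.5%, 51.1% and 50.8%. The lowest value was 7.39 CpG per kb, in the Gfi1 peak at the edge of the Barhl1 window, and the Lhx1 upstream site (27.5), the Pax6 peak farthest into the gene (27.3), the Lhx5 upstream site (28.5) and the Nkx2-2 3′ site (28.8) also lay under the medians of the peaks at the 10 genes.

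Among the 36 other homeobox and Pax genes of the hindbrain, cerebellum and midbrain, a Gfi1 TSS peak was found at 33 in tumor 39 and 12 in tumor 41, and an Lsd1 TSS peak at 21 and 28. The order of the libraries was the same as at the 10 genes, with Lsd1 in tumor 39 level with Gfi1 in tumor 41 at the latter. A TSS peak in all 4 libraries was found at 12 of 36, in Gfi1 of tumor 39 alone at 5, and in none at 3. The high-confidence sets were reached by 4 of 36 for Gfi1 and 5 of 36 for Lsd1, under the 22.9% and 25.9% of all genes. Of the 10 genes, 0 reached either set, and the difference between the groups was not tested. The highest mean TSS percentiles were those of the Iroquois gene Irx5 (97.4), the Hox cofactor gene Pbx2 (92.4) and Phox2a (91.9), a gene of noradrenergic neurons. Among the 3 genes with covered shares most like the median of the 10 genes, by Euclidean distance over the 4 libraries, were Pax7 (7.25 percentage points) and Nkx6-1 (7.31). At Nkx6-1, a ventral progenitor gene, Gfi1 peaks covered 16.8% and 0, and Lsd1 peaks 4.27% and 11.4%.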

How the data were processed

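ChIP was performed on 2 MG tumors (39, replicate 1; 41, replicate 2) with antibodies to Gfi1 and Lsd1. Reads were aligned by the authors with BWA 0.6.2 to the mm10 build and freed of duplicates, and MACS with its default settings was run on each library against input. The MACS version is not given in the sources used here. Each row of the deposited lists holds coordinates and a score, and what the score measures is not given, so that it was used only as a percentile within its list. In the high-confidence sets it took the place of the enrichment by which the study ranked peaks.

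Annotation came from GENCODE M21 (GRCm38, the build of mm10), with 132629 TSSs, where the authors used M9. A gene was called when a peak came within 1000 bp of any of its TSSs, and peaks were read over the gene body plus 10 kb. Peaks of the 4 lists that touched were joined into sites, and overlap required 1 bp. No test was run on 2 libraries for each protein, and counts stand beside the share of all 21938 protein-coding genes. The 10 genes, the 36 others and the markers were chosen with earlier results of these data known. The genes named are the 10, the 3 others with the highest mean TSS percentile among those called in all 4 libraries, the 3 closest in covered share, and genes that start within a window. Of the 3 closest, 1 is not reported here. Reading of peaks was checked on simulated lists over 2214 genes, in which 200 of 200 planted starts were found. Alternatives varied the TSS window, TSS set, score cutoff, replicate overlap, flank, pairing and libraries left out. Python 3.11.15, numpy 2.4.6, pysam 0.24.0 and samtools 1.23.1 were used.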

Additional observations from a re-analysis of the deposited data

Results flagged for a closer look

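At 7 of the 10 genes (En1, En2, Barhl1, Pax6, Pax2, Lhx1 and Lhx5) the covered share was higher for Gfi1 than for Lsd1 in tumor 39 and lower in tumor 41, so that the difference between the proteins turned its sign between the tumors. The same turn was seen at 24.5% of all genes. At Barhl1 the difference, Gfi1 minus Lsd1, was 12.04 percentage points in tumor 39 and -21.6 in tumor 41, and at Lhx5 it was 22.1 and -12.3. The difference was not tested, since each protein has 1 library in each tumor.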

How the results depend on the processing

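Of 64 alternatives to 9 results, 56 left the value within the spread between tumors or within 1.5 times the count. Some of them could not do otherwise, so that the 56 do not measure robustness. With 2 tumors, the value of 1 tumor always lies within 1 SD of the mean. Stricter cutoffs cannot raise a count of 0, and leaving a library out cannot lower a count over all libraries. The number of genes with a TSS peak in all 4 libraries fell from 3 to 1 (Barhl1) with the 5′ end of the gene only, and was 3 to 3 with each library left out. The number with a high-confidence Gfi1 TSS peak, 0, was 0 to 2 with a replicate left out (2 without tumor 41), and 3 with no score cutoff and an overlap of 1 bp, an alternative chosen after seeing the data. The number with a high-confidence Lsd1 TSS peak, 0, became 2 with the upper 40% of the score, 3 with no cutoff, 3 with no cutoff and an overlap of 1 bp, and 0 to 1 with a replicate left out (1 without tumor 41). The median percentile of the highest TSS peaks, 57.2 when pooled over genes and libraries, moved to 33.2 when ranked among TSS peaks only. In this pool a gene counts once for each library in which it has a TSS peak. Sites in all libraries were 5 to 7 with a library left out. The share of Gfi1 peaks with an Lsd1 peak of the same tumor, 64.7% in the mean, was 29.4% to 100% with a library left out and 24.4% for the central 200 bp of each peak. The reverse share, 60.6%, was 31.2% to 90% and 21.2%. Pairing the tumors crosswise gave 72.1% and 68.8%, within the spread between tumors. No paired analysis was possible because the results are counts and shares that come from no test, and values are given within each tumor instead. Whether depth limits the lists cannot be measured from them and was not tested. A gene without a peak is one at which none was called, not one without binding.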
